A study of Mus musculus with 8 samples.

Results

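The loci described here are those of 9 mouse transcription regulators associated with macrophage fate. They are the EGR family genes Egr1, Egr2 and Egr3, the EGR corepressor gene Nab2, the KLF family genes Klf2, Klf4 and Klf6, the MAF family gene Maf and the AP-1 gene Junb. The genes were given as a list, and every ChIP-Seq peak whose centre fell in a gene body or within 20 kb of it was assigned to that gene, using GENCODE M21 gene models on mm10. The list covers 9 of 21938 protein-coding genes on the assembled chromosomes. Their windows held 58 of the 67673 entries of the 4 peak lists.

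ChIP-Seq recovers DNA bound by a protein with an antibody, and positions where sequenced reads accumulate are called as peaks. The cells were X18.1.1, a murine acute myeloid leukaemia (AML) line that arose after irradiation, has lost a Pu.1 allele by deletion and carries mutations in the remaining allele. In the line called EV, or PU.1− in the study, cells carried an empty retroviral vector, and in the line called PuER, or PU.1+ in the study, they carried wild-type PU.1 fused to an oestrogen receptor domain that responds to 4-hydroxytamoxifen (OHT). Both were clonal derivatives of the same parent and both, the control included, received 100 nM OHT for 2 h, and chromatin was precipitated with a PU.1 or a CEBPA antibody, which gave 1 library for each antibody and line. Each line was a single clone, so a difference between lines cannot be told apart from a difference between clones. The lists gave a start and an end for each peak, every peak was 400 bp wide, and no height, score or read count came with them. Read depth is therefore unknown, no test between the lines was possible, and where a list lacks a peak, binding below the calling threshold may still have occurred. A call lost in some cells and weaker binding in all cells cannot be told apart in such lists, and the labelled cell type cannot be checked against marker genes. Samples for H3K27Ac and IgG were not analysed here.

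PU.1 is an ETS family factor of myeloid and B cells, and CEBPA is a leucine zipper factor of granulocyte and monocyte progenitors. EGR proteins are zinc finger activators induced early after growth factor signals, and the NAB proteins bind EGR factors and repress their targets. In the myeloid lineage EGR factors are known for favouring the macrophage over the neutrophil programme. KLF4 promotes monocyte differentiation, KLF2 restrains the activation of monocytes, and KLF6 takes part in inflammatory gene expression in macrophages. MAF restrains the self-renewal of macrophages, and JUNB is a subunit of AP-1, which pairs with FOS and other leucine zipper proteins.

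A peak that overlapped a peak of the same antibody in the other line by 1 bp or more was called shared, and any other was taken as called in a single line. Of the 6 PU.1 peaks at these loci that were called only in PuER, 5 are shown first, because they were called in the line with the transgene and not in the other. Each sequence is the central 80 bp of the peak in GRCm38 (mm10), on the plus strand, read from the reference genome and not from the libraries. Capitals mark the word GGAAGT, called the ETS core here, or its reverse complement, and 2 of these 5 held it.
Egr3 at +24.4 kb, chr14:70101574-70101653: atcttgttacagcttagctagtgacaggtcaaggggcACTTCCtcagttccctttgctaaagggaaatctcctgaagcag
Nab2 at +25.6 kb, chr10:127642879-127642958: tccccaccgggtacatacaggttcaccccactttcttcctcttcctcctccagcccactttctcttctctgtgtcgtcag
Klf2 at −1.21 kb, chr8:72317787-72317866: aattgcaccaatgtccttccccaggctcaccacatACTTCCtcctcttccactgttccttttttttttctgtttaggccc
Klf6 at +26.7 kb, chr13:5888151-5888230: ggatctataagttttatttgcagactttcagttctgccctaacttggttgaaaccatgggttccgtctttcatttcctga
Junb at +1.08 kb, chr8:84977600-84977679: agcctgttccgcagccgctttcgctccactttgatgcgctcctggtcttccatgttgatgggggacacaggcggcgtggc

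The Klf2 site and the Egr3 site at +24.4 kb carried the longer PU.1-type word GAGGAAGT, and in both its middle lay 1 bp from the peak centre. The Nab2, Klf6 and Junb peaks had no match to GGAAGT even in the full 400 bp. Each did hold the shorter GGAA, which the paper names as the core of the ETS motif, in the stretch shown. The central 80 bp of both PU.1 peaks called only in EV at these loci, at Egr3 and Junb, held GGAA as well. The share of all peaks with GGAA was not counted, so this word does not set the Nab2, Klf6 and Junb peaks apart. The Klf6 peak held a match to the PU.1-IRF composite word, 32 bp from its centre, which 8.11% of all PuER peaks also had in their central 80 bp.

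The sequences of the shared Junb site and of both PU.1 peaks called only in EV are shown for comparison. The shared Junb peak was called with its centre 99 bp apart in the lines, and the central 80 bp therefore differ. In EV the central stretch held the ETS1-type word CAGGAAGT, and in PuER it held another ETS core further upstream of Junb.
Junb at −1.10 kb, EV, chr8:84979779-84979858: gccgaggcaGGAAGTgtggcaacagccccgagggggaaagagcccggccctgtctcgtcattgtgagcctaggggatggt
Junb at −1.20 kb, PuER, chr8:84979878-84979957: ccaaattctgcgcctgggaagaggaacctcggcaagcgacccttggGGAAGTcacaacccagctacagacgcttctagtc
Egr3 at −2.60 kb, EV only, chr14:70074567-70074646: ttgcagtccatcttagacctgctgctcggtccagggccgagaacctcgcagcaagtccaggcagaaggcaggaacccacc
Junb at −0.120 kb, EV only, chr8:84978798-84978877: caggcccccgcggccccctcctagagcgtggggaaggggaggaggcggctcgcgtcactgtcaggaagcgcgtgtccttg

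Among CEBPA peaks, 3 central stretches are shown with the CEBP site, matched as TTGCNNAA, in capitals. The Klf2 and Junb sites were called in both lines, and the Maf site, just before the start of the gene, was called only in EV.
Klf2 at −15.1 kb, chr8:72303857-72303936: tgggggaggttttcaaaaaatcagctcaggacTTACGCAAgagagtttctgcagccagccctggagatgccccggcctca
Junb at −6.82 kb, chr8:84985494-84985573: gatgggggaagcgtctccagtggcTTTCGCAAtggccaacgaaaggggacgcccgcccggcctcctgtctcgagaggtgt
Maf at −0.240 kb, chr8:115707994-115708073: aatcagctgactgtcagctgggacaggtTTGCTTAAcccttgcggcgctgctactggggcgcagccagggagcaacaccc

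Across the 9 loci there were 8 PU.1 peaks in EV and 11 in PuER, and 22 CEBPA peaks in EV and 17 in PuER. The whole lists held 5288 and 15683 PU.1 peaks and 26119 and 20583 CEBPA peaks, in the same order. Most loci had CEBPA calls that persisted between the lines, and PU.1 calls appeared at Egr3, Nab2, Klf2, Klf6 and Junb in PuER. Of the 11 PuER peaks, 6 were called only in PuER (54.5%, 95% confidence interval 23.4–83.3%), while 81.1% of the whole PuER list was. The 2 peaks called only in EV made up 25.0% (3.19–65.1%) of the 8 EV peaks, against 43.8% of that list. For CEBPA, 5 of 22 peaks were called only in EV (22.7%, 7.82–45.4%), against 30.7% of the list, and the remaining 17 were shared. None of the 17 CEBPA peaks of PuER was confined to that line, which allows a share of up to 19.5%, and 12.1% of the whole list was of this kind. The intervals are Clopper-Pearson intervals, and they allow for counting error but for no other source of error.

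**Figure D1:**
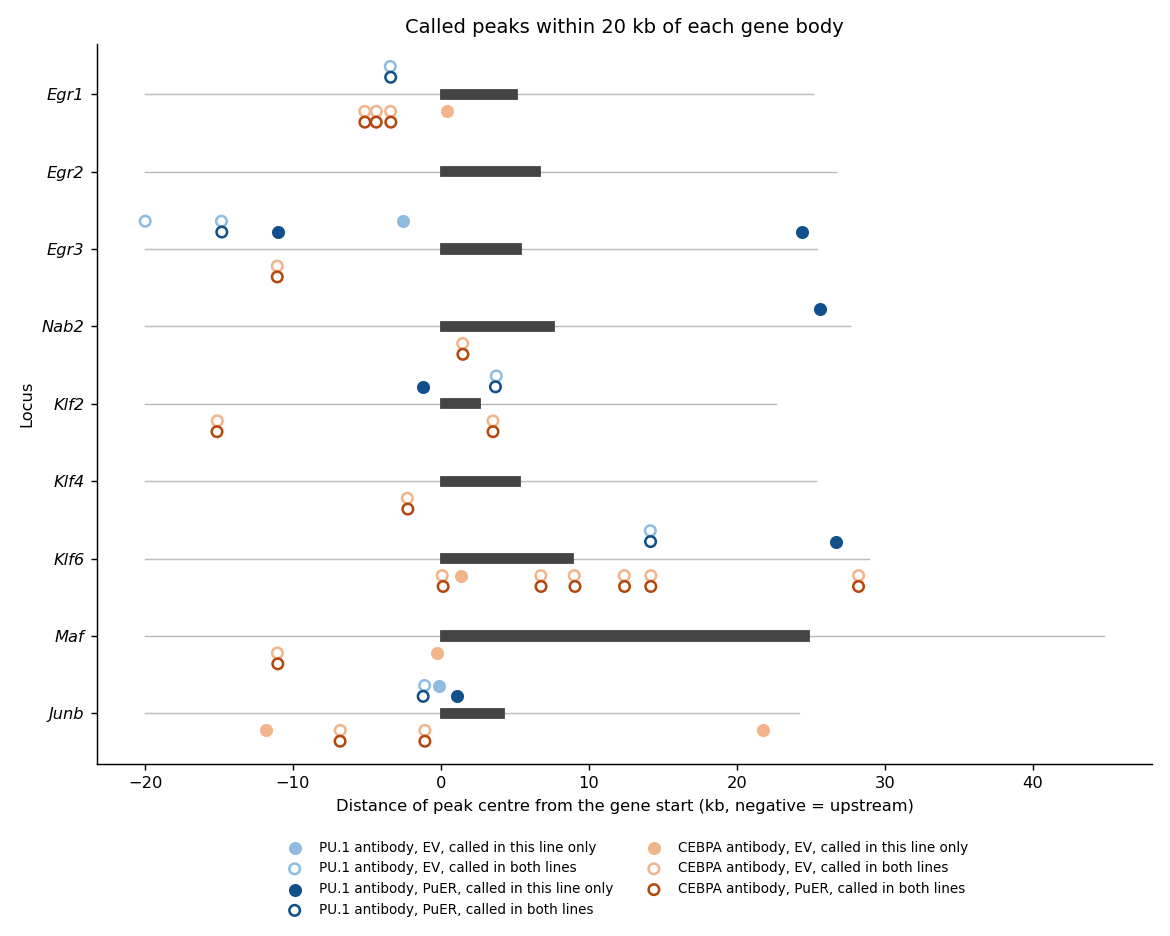
Called peaks at the 9 loci, by distance of the peak centre from the gene start in kb on the horizontal axis. Each row is a locus, the dark bar is the gene body, the grey line is the window, PU.1 peaks are above and CEBPA peaks below the line, filled circles are calls in a single line and open circles are calls in both; Egr2 has no circle, and the open PU.1 circle at the left end of the Egr3 row has its partner just outside the window.

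The EGR genes and Nab2 had contrasting maps. Egr1, on chromosome 18 at 34859823–34864984 (plus strand), had 1 PU.1 peak in EV, 1 in PuER, 4 CEBPA peaks in EV and 3 in PuER. Its upstream side held 3 sites in a row at −5.14, −4.37 and −3.40 kb that carried CEBPA calls in both lines. The site nearest the gene, at −3.40 kb, carried PU.1 calls in both lines as well, and was thus present in all 4 lists. The PU.1 peak centre of EV lay 36 bp from an ETS1-type word and 51 bp from a PU.1-type word, and the centre of PuER lay 63 bp and 24 bp from the same words. A match to the MAF word TGCTGAC lay 2 bp from the PuER centre. The fourth CEBPA peak, in a UTR exon 387 bp after the start, was called only in EV and had a CEBP site 20 bp from its centre. No PU.1 peak confined to PuER was found at Egr1 within 20 kb, and the nearest such peak lay 23.7 kb beyond the gene body, closer to Etf1.

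Egr2 (chr10:67535475-67542188, plus strand) had no peak in any of the 4 lists. Its window was also empty out to 50 kb. No peak in any list was the outcome for 34.6% of protein-coding genes, and among the 9 members Egr2 alone had it.

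Egr3 (chr14:70077203-70082614, plus strand) had 3 PU.1 peaks in EV, 3 in PuER, and 1 CEBPA peak in each line. As many PU.1 peaks or more were found at 1.82% of protein-coding genes in EV and 9.46% in PuER. The EV count includes a peak at the very edge of the window, described below, and 6.06% of genes had 2 or more in EV. The peak at −2.60 kb was called only in EV, those at −11.0 and +24.4 kb only in PuER, and the peak at −14.8 kb in both. The site at −11.0 kb had a CEBPA peak in both lines and was the only site of the 9 loci where a PU.1 call appeared on a CEBPA site called in both lines. Other genes lay nearer to some of these peaks. The centre at +24.4 kb was in an intron of Bin3, and Pebp4 was nearer than Egr3 to the peaks at −11.0 and −14.8 kb. The remaining EV peak, in a Pebp4 intron, lay 19989 bp from the Egr3 body, just inside the window, and its PuER counterpart lay 20005 bp away, just outside. The shared PU.1 peaks were for this reason 6 when counted in EV and 5 when counted in PuER.

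Nab2 (chr10:127660918-127668568, minus strand) had no PU.1 peak in EV, 1 in PuER and 1 CEBPA peak in each line. The CEBPA peak lay at a Nab2 transcript start 1.48 kb after the start of the gene model, where the Nab2 and Nemp1 models overlap. It had no CEBP site in 400 bp and a match to the EGR word GCGTGGG, 124 bp from the centre in EV and 110 bp in PuER. The PU.1 peak at +25.6 kb lay 67 bp from Stat6, which encodes the transcription factor downstream of the interleukin-4 receptor, and 17999 bp from the Nab2 body. Although inside the Nab2 window, the peak was thus nearer to Stat6 than to Nab2.

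The KLF loci ranged from the most to nearly the fewest calls. Klf2 (chr8:72319033-72321656, plus strand) had 1 PU.1 peak in EV, 2 in PuER, and 2 CEBPA peaks in each line. The PU.1 peak called only in PuER lay 1.21 kb before the start, with no CEBPA peak on it. Besides the PU.1-type word at its centre, it held a RUNX word (TGTGGT or TGCGGT) 9 bp away. The site at +3.63 kb, just beyond the end of the gene, was in all 4 lists. There the PU.1 and CEBPA centres lay 222 bp apart in EV and 166 bp in PuER, and the ETS core was 49 bp from the PU.1 centre in EV and 6 bp in PuER. The second CEBPA site, at −15.1 kb, was 193 bp from the gene model Gm10282 in the EV list.

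Klf4 (chr4:55527143-55532466, minus strand) had a CEBPA peak at −2.25 kb in both lines and no PU.1 peak. That CEBPA peak held no CEBP site. The nearest protein-coding gene, Rad23b, was 135 kb away, and no further peak of any list lay within 50 kb.

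Klf6 (chr13:5861482-5870394, plus strand) had the most calls of the 9, with 1 PU.1 peak in EV, 2 in PuER, 7 CEBPA peaks in EV and 6 in PuER. As many CEBPA peaks or more were found at 2.96% of protein-coding genes in EV and 2.94% in PuER. Since longer genes have wider windows, the same count was taken over the 13070 genes no longer than the longest member, Maf (24.9 kb), and came to 0.451% and 0.612%. The 6 shared CEBPA sites ran from the promoter at +0.119 kb, through +6.76, +9.04, +12.4 and +14.2 kb, to +28.2 kb, and the peak called only in EV was in the intron at +1.37 kb. The site at +14.2 kb was in all 4 lists, with the PU.1 and CEBPA centres 34 bp apart in EV and 15 bp in PuER. In its PuER peak the ETS core lay 30 bp and the nearest CEBP site 48 bp from the PU.1 centre. The PU.1 peak called only in PuER, at +26.7 kb, was 1 of the 3 sites of this class for which the member was the nearest gene. The next protein-coding gene, Pitrm1, was 678 kb from Klf6.

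By the pattern over the 6 class counts, PU.1 and CEBPA each called in EV only, in both or in PuER only, the genes most like Klf6 were Abhd5, Bcl2l13 and Bptf, each at a Manhattan distance of 1. They are named in alphabetical order from 17 genes tied at that distance. Their bodies, of 29.9, 56.6 and 99.0 kb, were longer than the 8.91 kb of Klf6. The counts come from 4 libraries with no replicate, so the order of genes by likeness has no error attached.

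**Figure D2:**
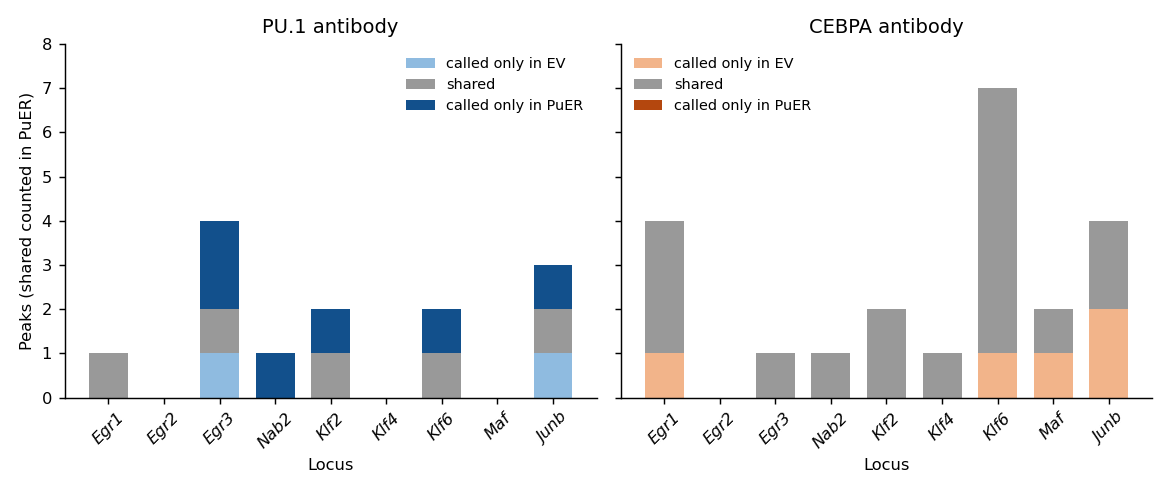
Number of peaks at each locus on the vertical axis, for the PU.1 antibody on the left and the CEBPA antibody on the right, divided into peaks called only in EV, shared, and called only in PuER. Shared peaks are counted in PuER, so the Egr3 EV peak whose partner lies outside the window is not drawn; the CEBPA panel has no peak called only in PuER, and Klf6 has the tallest CEBPA bar, with 7 peaks.

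Maf (chr8:115682942-115707794, minus strand) had no PU.1 peak in either line, 2 CEBPA peaks in EV and 1 in PuER. The peak 240 bp before the start was called only in EV, and its CEBP site is shown above. The peak at −11.0 kb was shared and had no CEBP site in 400 bp, but a match to the AP-1 word TGANTCA. No other protein-coding gene lay within 330 kb of Maf, and no peak lay between 20 and 50 kb from it.

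Junb (chr8:84974484-84978718, minus strand) had 2 PU.1 peaks in each line, 4 CEBPA peaks in EV and 2 in PuER. PU.1 was called at 3 places within 1200 bp of the start, and which were called differed between the lines. The promoter peak at −0.120 kb was called only in EV and had the EGR word in its central 80 bp. The peak at +1.08 kb, in the coding exon, was called only in PuER and contained 38 CpG dinucleotides and 65.5% G and C in its 400 bp. The site at −1.14 kb was in all 4 lists. Its EV centre lay 28 bp from the nearest ETS core, which was part of the ETS1-type word, and its PuER centre lay 9 bp from another ETS core. Of the CEBPA peaks, those at −6.81 and −1.14 kb were shared, and those at −11.8 and +21.7 kb were called only in EV. The last pair lay by other genes, 61 bp from Hook2 and in a UTR exon of Rnaseh2a, respectively. The shared peak at −6.81 kb was also nearer to Hook2, 5083 bp away in EV against 6802 bp to Junb. Junb had 5 other protein-coding genes within 20 kb, the most of the 9 loci.

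PU.1 calls confined to PuER were set against all genes treated by the same rule. Such a peak was present at 5 of 9 members, namely Egr3, Nab2, Klf2, Klf6 and Junb, and at 36.7% of protein-coding genes. Within 10 kb it was present at 2 of 9 members and 29.3% of genes, so the order of the members and the background turned with the window. Any PU.1 peak was present at 5 members in EV and 6 in PuER, against 23.7% and 41.4% of genes. Shared PU.1 peaks were present at 5 members (Egr1, Egr3, Klf2, Klf6 and Junb), against 13.4% of genes. Egr3 and Junb had a PU.1 peak called only in EV, as did 13.7% of genes. With 9 members, a single gene moves such a share by more than 10 percentage points, and the comparison with all genes is a description.

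CEBPA was called at every member but Egr2. The 8 members with a CEBPA peak in EV, in PuER and shared were the same genes, and 56.5%, 51.3% and 48.3% of protein-coding genes had such peaks. A CEBPA peak called only in EV was present at Egr1, Klf6, Maf and Junb, that is 4 members, against 30.1% of genes. No member had a CEBPA peak called only in PuER, against 11.4% of genes. Over genes no longer than Maf, a comparison chosen after the data were seen, the last pair of shares was 23.4% and 8.32%, and that of PU.1 calls confined to PuER was 28.2%. The median member had 1 PU.1 peak in each line and 2 and 1 CEBPA peaks in EV and PuER, against medians over all genes of 0, 0, 1 and 1.

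**Figure D3:**
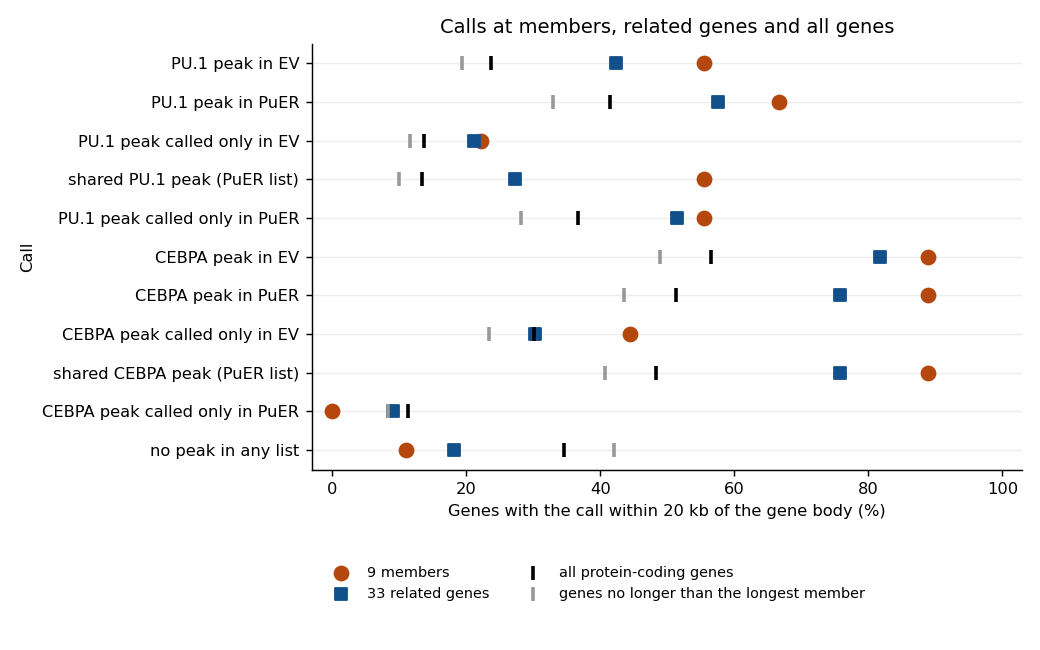
Percentage of genes with each kind of call within 20 kb of the gene body, on the horizontal axis, for the 9 members (circles), 33 related genes (squares), all protein-coding genes (black ticks) and genes no longer than the longest member (grey ticks). The circle for shared PU.1 peaks stands at 5 of 9 members against a black tick at 13.4%, and the circle for CEBPA peaks called only in PuER stands at 0.

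Merged over the lists, the calls fell into 31 distinct sites. CEBPA was called alone in both lines at 12 sites and in EV alone at 5. All 4 lists had a call at 4 sites, 1 each at Egr1, Klf2, Klf6 and Junb. PU.1 was called without CEBPA in PuER alone at 5 sites, in EV alone at 3, of which the Egr3 site at the window edge is 1, and in both lines at 1. The last site was that of Egr3 at −11.0 kb, with PU.1 in PuER and CEBPA in both lines. Of the 11 PU.1 peaks of PuER, 5 overlapped a CEBPA peak of the same line (45.5%, 16.7–76.6%), against 29.8% of the whole list. With centres within 100 bp in place of an overlap, 3 of the 11 counted (27.3%), against 22.3% of the list. By overlap, they were 4 of the 5 shared peaks and 1 of the 6 called only in PuER, against 58.2% and 23.2% of those classes in the whole list. In EV, 4 of 8 PU.1 peaks overlapped a CEBPA peak, against 57.6% of the list. None of the 2 PU.1 and 5 CEBPA peaks called only in EV overlapped a peak of the other antibody in that line, against 54.5% and 6.02% overlapping in these classes of the whole lists.

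Promoter peaks were taken as those with a centre within 1000 bp of a transcript start of the member. There were 7 such entries, namely 1 PU.1 peak of EV (Junb), 4 CEBPA peaks of EV (Egr1, Nab2, Klf6 and Maf) and 2 CEBPA peaks of PuER (Nab2 and Klf6). None of the 11 PU.1 peaks of PuER was at a promoter by this distance, but 3 were within 2500 bp of a start, at Junb (+1078 and −1200 bp) and Klf2 (−1206 bp). Counted by the starts of any protein-coding gene within 1000 bp, a comparison chosen after the data were seen, the locus peaks at promoters were 1 of 8 and 1 of 11 for PU.1 in EV and PuER, against 26.6% and 12.0% of the lists. For CEBPA they were 5 of 22 and 2 of 17, against 17.1% and 17.5%. By the starts of the members, of the 11 PU.1 peaks of PuER, 5 were upstream, 5 downstream and 1, in Junb, inside the gene. Shared peaks overlap by definition, so their centres had to lie less than 400 bp apart. The centres were 17 to 99 bp apart for PU.1 (median 27 bp, n = 5) and 1 to 61 bp for CEBPA (median 14.0 bp, n = 17). The locus peaks were richer in G and C than the lists they came from. Their medians were 56.6% for PU.1 in EV, 50.2% for PU.1 in PuER, 51.9% for CEBPA in EV and 50.2% for CEBPA in PuER, against 48.8%, 45.5%, 46.0% and 46.2% over the whole lists. The part of base composition in the motif counts was not tested.

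Of the 11 PuER peaks for PU.1, 7 had an ETS core within their central 80 bp (63.6%), against 43.5% of the list, and of the 8 EV peaks 2 had it (25.0%), against 36.5%. This order depended on the length searched. In the whole 400 bp the core was found in 8 of 11 PuER peaks (72.7%) and 7 of 8 EV peaks (87.5%), against 64.5% and 62.3% of the lists. The PU.1-type word was found in the central 80 bp of 3 of the 11 peaks of PuER (Egr1, Egr3 and Klf2). At this length it was in none of the 8 of EV, against 15.2% and 7.38% of the lists, respectively. In the whole 400 bp it was found in 3 of 11 and 1 of 8 (Egr1), against 21.8% and 13.4%. The ETS1-type words CAGGAAGT and CCGGAAGT were found in the central 80 bp of 0 of 11 and 2 of 8 (Egr1 and Junb), against 6.43% and 12.0%. In the whole 400 bp these words were found in 3 of 11 and 2 of 8, against 13.2% and 23.0%. The 2 EV matches belonged to sites that were called in both lines, so the difference there lay in where the peak was centred and not in which site was called. A CEBP site lay in the central 80 bp of 8 of 22 CEBPA peaks of EV (36.4%) and 6 of 17 of PuER (35.3%), against 35.6% and 38.2% of the lists. The KLF word CCACACCC was found in no locus peak of any list, at 80 or 400 bp, and in the 400 bp of 3.95% of all PU.1 peaks of EV and 3.85% of all CEBPA peaks of PuER. In the central 80 bp of all PU.1 peaks of PuER, the RUNX words were found in 11.5%, and the EGR word was found in 0.756% of those of EV. The MAF word was found in the 400 bp of 7.26% of all PU.1 peaks of PuER. In the 400 bp of all CEBPA peaks of EV, the EGR word was found in 2.70% and the AP-1 word in 16.1%. PU.1-type and ETS1-type words contain the ETS core and overlap it by construction, and a match is a description of the letters, not a measured binding site.

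At the 5 shared PU.1 sites, the distance from the peak centre to the nearest ETS core in the peak was compared between the lines, a comparison chosen after the data were seen. It was smaller in PuER at Egr1 (37 bp in EV and 25 bp in PuER), Klf2 (49 and 6 bp), Klf6 (47 and 30 bp) and Junb (28 and 9 bp). It was larger at Egr3 (169 and 193 bp). At Egr1 and Junb the nearest core was a different one in each line. In the whole lists, 2001 shared pairs had an ETS core in both peaks. The nearest core was closer in PuER in 1065 of them (53.2%), closer in EV in 877 and equally close in 59. The medians were 26 bp in EV and 21 bp in PuER.

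**Figure D4:**
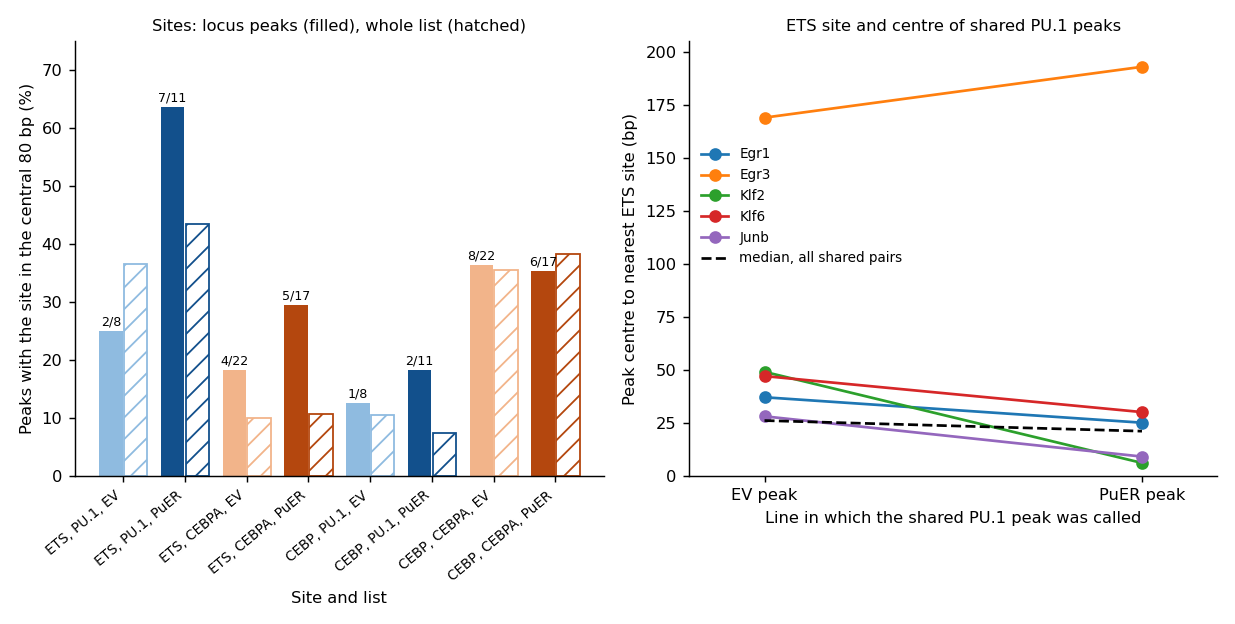
On the left, percentage of peaks with an ETS or CEBP site in the central 80 bp, for locus peaks (filled bars, with counts above) and the whole list (hatched bars); on the right, distance in bp from the peak centre to the nearest ETS core at the 5 shared PU.1 sites in each line, with the median of all shared pairs as a dashed line. The filled bar for PU.1 in PuER stands at 63.6% against 43.5%, and 4 of the 5 lines on the right slope down from EV to PuER.

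At the promoters in the RefSeq table for GRCm38, which runs from 250 bases before to 50 bases after a gene start, 6 members were matched (Egr2, Nab2, Klf2, Klf4, Klf6 and Junb), and 3 had a call, against 12.9% of the 27025 genes of the table. The Junb promoter overlapped a PU.1 peak of EV, and the Nab2 and Klf6 promoters overlapped CEBPA peaks of both lines. The ETS core was found in the Junb and Klf6 promoters and in 23.8% of all 32851 promoters of the table.

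The other genes of the same families were examined by the same rule, as a list of 33 genes, all of which were found. A PU.1 peak called only in PuER was present at 17 of them, any PU.1 peak at 14 in EV and 19 in PuER, and a CEBPA peak at 27 and 25, respectively. The shares of all genes are those given above, 36.7% for the first of these calls, 23.7% and 41.4% for PU.1, and 56.5% and 51.3% for CEBPA. Shared PU.1 peaks, present at 5 of the 9 members, were present at 9 of the 33 related genes, against 13.4% of all genes. By family, PU.1 peaks confined to PuER were present at 10 of 11 AP-1 genes, 3 of 14 KLF genes, 3 of 6 MAF genes and 1 of 2 EGR and NAB genes, beside the 36.7% of all genes. Batf3, which encodes a leucine zipper partner of JUN proteins in dendritic cells, had the most with 4, followed by Klf10 with 3. The genes Klf3, Klf13, Maff, Fos, Atf3 and Jdp2 had 2 each. Fos, the classical partner of JUN, had 2 PU.1 peaks in EV, 3 in PuER and 3 CEBPA peaks in each line. Jun had 0 and 1 PU.1 peaks and 1 and 2 CEBPA peaks in EV and PuER.

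Among the closest relatives of the EGR genes and Nab2, Egr4, like Egr2, had no peak in any list. Nab1 had 1 PU.1 peak in each line, at different places, and 2 CEBPA peaks that were called only in EV. CEBPA peaks called only in PuER, absent from the 9 members, were present at 3 of the 33 genes, Klf16, Jun and Fosb, which are named because the count was small, and at 11.4% of all genes. The KLF genes had 12 and 15 PU.1 peaks in EV and PuER, and the AP-1 genes 7 and 21, against 5288 and 15683 in the whole lists.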

How the data were processed

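PU.1 and CEBPA ChIP-Seq peaks from EV and PuER cells were examined, with 1 library for each antibody and line. The authors mapped reads to mm10 and called peaks, and the submitters' processing notes name Bowtie2 2.0.6 and MACS2 2.0.10. The deposited files hold 3 columns, a chromosome and start and end coordinates, with no other measure. The calling threshold and how intervals were set to 400 bp are not given in the sources used here. Depth is unknown. The members, related genes, words and alternatives were chosen with earlier results of these data known.

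Peaks were placed by their centre within 20 kb of GENCODE M21 protein-coding genes and classed by an overlap of at least 1 bp. Words were searched on both strands of GRCm38. All 9 members were named, with the 5 related genes (8 with ties) that had most new PU.1 peaks in PuER, Egr4, Nab1, Jun and Fos. A further gene and a sequence are not reported here. Other genes are named where they lay nearer to a peak. Sample groups came from the labels. No test was run. The peak classes, the windows and distances, and the word search recovered 100% of simulated answers. The other steps were not checked in this way. Python 3.11.15, numpy 2.4.6, scipy 1.17.1 and matplotlib 3.10.9 were used. Other windows, overlap rules, gene assignments, search lengths and promoter distances were tried.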

Additional observations from a re-analysis of the deposited data

How the results depend on the processing

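Of 77 values recomputed under the alternatives, 63 stayed within 1.5 times the reported count or within the interval of the reported share, and 14 did not. Within 10 kb in place of 20 kb, PU.1 peaks called only in PuER numbered 2, at 2 members against 29.3% of all genes, and CEBPA peaks called only in EV numbered 3. Within 50 kb there were 4 PU.1 peaks called only in EV, 8 shared and 10 called only in PuER, and 10 CEBPA peaks called only in EV. When a peak counted only for its nearest gene, 3 PU.1 peaks called only in PuER were left, at 3 members, with 3 CEBPA peaks called only in EV. The ETS core was found in 75% of the 8 PU.1 peaks of EV in the central 200 bp and in 87.5% in the whole peak. The overlap of PU.1 with CEBPA peaks in PuER fell to 27.3% with centres within 100 bp, inside its wide interval. Without Klf6, the locus with the most calls, 11 shared CEBPA peaks were left. Within 2500 bp of a transcript start there were 16 entries in place of 7. CEBPA peaks called only in PuER were 0 in every alternative run within 20 kb and in both other windows. The numbers of calls and members thus depend on the window and on the nearest-gene rule. No paired analysis was possible because each antibody and line had 1 library, and no replicate could be left out. Depth, peak height and the calling threshold were not available to weigh any call.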

Other observations

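Between 20 and 50 kb from the gene bodies, Egr2, Klf4, Klf6, Maf and Junb had no peak in any list. Egr3 had 1 PU.1 peak in EV, 2 in PuER, and 4 and 3 CEBPA peaks there, and Klf2 had 3, 2, 5 and 3 in the same order. Nab2 had 2 PU.1 peaks in PuER at this distance, called in PuER only, and the CEBPA peak called in both lines nearest to Nab2 outside the window lay 20.8 kb away, nearer to Stat6. At Egr1 the same distance held 1 PU.1 peak, called only in PuER, and 2 CEBPA peaks called only in EV, all nearer to Etf1.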
